A study of Mus musculus with 151 samples.

Results

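The genes of the mitochondrial genome were read in single hair cells of the mouse cochlea, as all genes of the count table whose symbol starts with "mt-". The rule found 37 of the 55291 genes, and these were 13 protein-coding genes, 2 rRNA genes and 22 tRNA genes. The cells fell into 3 groups. There were 55 inner hair cells at postnatal day 14 (P14_WT IHCs) and 50 at postnatal day 30 (P30_WT IHCs), both from C57BL/6 mice of the genotype vGlut3-P2A-iCreER/+; Ai9/+. The third group held 46 cells at postnatal day 14 (P14_iOHCs) with the genotype vGlut3-P2A-iCreER/+; Tbx2 flox/-; Ai9/+, which are former inner hair cells that take on features of outer hair cells after loss of the transcription factor *Tbx2*. All 3 groups thus carried 1 iCreER allele at the vGlut3 (*Slc17a8*) locus, which drives the recombinase in inner hair cells, and 1 Ai9 reporter allele that gives Tdtomato after tamoxifen, and the mice were given tamoxifen soon after birth. In the P14_iOHCs 1 *Tbx2* allele was null from the start and the other was floxed. Each library holds 1 Tdtomato+ cell picked by hand from dissociated cochlea, and the iOHCs were also chosen for their smaller size.

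Mitochondrial DNA is a small circle that lies in many copies inside the organelle and is transcribed from both strands as long precursors, from which tRNAs, rRNAs and mRNAs are cut out. Its mRNAs encode core membrane subunits of 4 of the respiratory complexes (NADH dehydrogenase or complex I, cytochrome bc1 or complex III, cytochrome c oxidase or complex IV, and ATP synthase or complex V), while all other subunits, and all of complex II, come from nuclear genes. Both rRNAs belong to the ribosome of the organelle, whose proteins are also encoded in the nucleus. Hair cells use ATP to keep up ion gradients and to release and refill synaptic vesicles, and mutations of the small-subunit rRNA gene are a known cause of inherited deafness in humans. Fragments of mitochondrial DNA have also been copied into nuclear chromosomes, and reads from such copies cannot be told from those of the organelle where the sequences are identical.

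Of the 37 genes, 7 share much of their sequence with 1 nuclear copy, a row of 7 unprocessed pseudogenes on the minus strand of chromosome 1 (chr1:24611535-24616197, GRCm38, GENCODE M21). Gm28661 matched *mt-Co2*, Gm10925 matched *mt-Atp6*, Gm28437 matched *mt-Co3* and Gm10222 matched *mt-Nd4l* with 0 differing bases over their whole lengths of 681, 678, 783 and 294 bases. Gm28438 differed from *mt-Nd3* at 1 of 345 bases, Gm28439 was identical to the first 876 bases of *mt-Nd4*, and Gm29216 differed at 6 of 492 bases from the end of *mt-Co1* (bases 1054 to 1545 of the gene). The sequences were read from GENCODE M21. The first 60 bases of *mt-Atp6* (chrM:7927-8607, plus strand) and of its copy Gm10925 (chr1:24613974-24614651) show why the reads of this gene have no base that tells the source.
mt-Atp6: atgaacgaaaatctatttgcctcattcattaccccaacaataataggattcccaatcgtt
Gm10925: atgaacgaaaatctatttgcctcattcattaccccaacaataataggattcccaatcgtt
For *mt-Nd3* (chrM:9459-9806, plus strand) and Gm28438 (chr1:24612775-24613119) the single difference, in capitals, is T3C, counted from 1 at the first base of the gene.
mt-Nd3: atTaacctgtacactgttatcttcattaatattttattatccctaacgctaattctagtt
Gm28438: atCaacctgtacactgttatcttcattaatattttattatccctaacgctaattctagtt
For *mt-Co1* (chrM:5328-6872, plus strand) from base 1054 and Gm29216 (chr1:24615706-24616197) from its base 1, all 6 differences stand in the first bases of the copy and are T1056A, C1057T, A1059G, A1060G, C1062A and A1066T, so that the rest of the copy is identical.
mt-Co1: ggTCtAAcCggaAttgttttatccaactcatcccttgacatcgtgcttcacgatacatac
Gm29216: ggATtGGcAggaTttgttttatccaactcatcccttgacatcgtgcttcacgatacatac
*mt-Nd1*, *mt-Nd2*, *mt-Nd5*, *mt-Nd6*, *mt-Cytb* and both rRNA genes have no counterpart in the chromosome 1 copy. Shorter identical stretches (runs of at least 50 bases) lie in pseudogenes elsewhere. They cover 17.2% of *mt-Nd2* in Gm13339, and 17.4% of *mt-Nd5* in Gm4076 and 11.6% in Gm11407. For *mt-Co1* they cover 55.1% in Gm13340 and 3.50% in Gm11512, and for *mt-Co2* 61.4% in Gm13341. In the gene Gm20594 they cover 4.11% of *mt-Rnr2*. The mean level of each of these was 9.56 CPM (counts of a gene divided by the cell's total and scaled to a total of 1000000) or less in every group. Copies are not reported here for every chromosome. *mt-Atp8* (chrM:7766-7969) lies between *mt-Co2* and *mt-Atp6* and shares 43 bases with the latter, and the matching stretch between the pseudogenes carries no annotated gene and was not analysed here.

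Totals per cell lay between 4326416 and 25035444 counts, around a median of 15557333, and no pair of cells within a group held identical counts. A gap in the totals separated 51 cells, the highest of them at 10267217, from 100 cells, the lowest of them at 11814928. In wild-type cells this gap fell exactly between low and high cell numbers in the labels (P14_WT IHC 1 to 16 against 17 to 55 and P30_WT IHC 1 to 23 against 24 to 50). Among the P14_iOHCs, cells 1 to 15, of which 11 had totals below the gap, were set against cells 16 to 46, of which 1 did. These runs of numbers were chosen after the totals and the counts of *mt-Atp8* were seen. The labels do not say what separates them, and values within each run are therefore given beside the pooled ones for the mitochondrial genes. The median level of *Tbx2* was 240.3 CPM in P14_WT IHCs (49.5 to 754), 167 CPM in P30_WT IHCs (3.29 to 420.2) and 41.4 CPM in P14_iOHCs (0 to 427), and counts over the whole gene do not show which cells lost the floxed part. *Slc26a5*, the motor protein prestin of outer hair cells, had a median of 1033 CPM in P14_iOHCs and 0 in both wild-type groups, and *Otof*, a synaptic protein of inner hair cells, had 232, 3469 and 3623 CPM in P14_iOHCs, P14_WT IHCs and P30_WT IHCs. The 14 markers of supporting cells summed to a median of 947 CPM in P14_iOHCs (0 to 10916) and 17.7 CPM in P14_WT IHCs (0 to 2348), and *Prox1* was at 0 in both groups. The part of supporting-cell RNA in the results was not tested. In these markers 30 of the 46 P14_iOHCs were not above the single highest P14_WT IHC, at 2348 CPM, which does not make them as low as most P14_WT IHCs.

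The labels name no animal for any cell. Each group was therefore taken as 1 sample of many cells, no test was made between groups and no p-value is given, and the values stand with the SD and the range between cells. The share of cell pairs in which the first group is higher is 50% where the groups lie on top of each other and 100% where they do not overlap. The P30_WT IHCs and the P14_iOHCs were both compared with the same P14_WT IHCs.

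Mitochondrial genes took a larger part of the counts at P30 than at P14 in wild-type inner hair cells, while the means of P14_iOHCs and P14_WT IHCs were close over all cells and differed in opposite directions in the 2 runs of cell numbers. The share ranged from 2.03% to 21.9% of a cell's counts in P14_WT IHCs (median 5.79%, mean 6.54% ± 3.24, SD, n = 55), from 4.51% to 37.6% in P30_WT IHCs (median 8.09%, mean 9.35% ± 4.94, SD, n = 50) and from 3.13% to 10.6% in P14_iOHCs (median 5.99%, mean 6.24% ± 1.65, SD, n = 46). All 3 ranges overlapped. In 46 of the 50 P30_WT IHCs the share was above the median of the P14_WT IHCs, and a P30 cell was higher in 76.1% of the cell pairs. The ratio of the means was 1.43 (0.51 on the log2 scale), 1.35 between cells with low numbers (78.8% of pairs) and 1.24 between cells with high numbers (78.2% of pairs). The highest share in each wild-type group stood well above the next cell, with 21.9% in P14_WT IHC 4 against 14.3% and 37.6% in P30_WT IHC 23 against 14.8%. P14_WT IHC 4 had 8526 detected genes, beside a group mean of 8754 ± 543 (SD, n = 55). P30_WT IHC 23 had 6213, beside a group mean of 8492 ± 1449 (SD, n = 50). Pooled over all cells the shares were 5.98% of 791238321 counts in P14_WT IHCs, 8.15% of 655474107 in P30_WT IHCs and 6.16% of 709074577 in P14_iOHCs, with exact 95% binomial intervals of 5.974% to 5.977%, 8.1495% to 8.154% and 6.157% to 6.1601% that cover counting error only, since the reads carry no molecular identifiers.

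**Figure D1:**
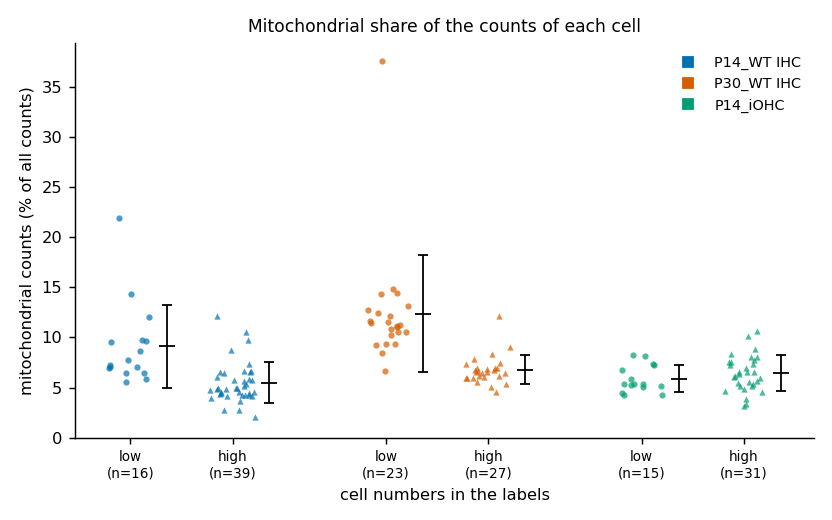
Each point is 1 cell and shows its mitochondrial counts in percent of all its counts, for cells with low (circles) and high (triangles) numbers in the labels of each group, and bars to the right of the points are the mean ± SD. Wild-type cells with low numbers lie higher (means 9.13% at P14 and 12.4% at P30) than those with high numbers (5.48% and 6.76%), and the P14_iOHCs do not (5.88% and 6.42%).

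In the wild-type groups, cells with low and high numbers lay further apart in mean than the ages did. The mean share was 9.13% ± 4.14 (SD, n = 16) in P14_WT IHCs with low numbers and 5.48% ± 2.04 (SD, n = 39) in those with high numbers, and 12.4% ± 5.84 (SD, n = 23) and 6.76% ± 1.43 (SD, n = 27) in the P30_WT IHCs. P14_iOHCs held 5.88% ± 1.34 (SD, n = 15) and 6.42% ± 1.78 (SD, n = 31). Against the P14_WT IHCs of the same run, the P14_iOHC mean was 0.644 times as high among low numbers, where 9 of 15 cells lay below every P14_WT IHC and the P14_iOHC was higher in 16.2% of pairs. Among high numbers it was 1.17 times as high, with 68.8% of pairs. Over all cells the ratio was 0.955 with 54.3% of pairs, and its direction therefore differed with the run. Spearman's rho between the share and the total count is given as a description, since the cells fall into runs of numbers that differ in depth. Over all cells it was -0.64 in P14_WT IHCs, -0.83 in P30_WT IHCs and -0.21 in P14_iOHCs, and its size and sign depended on the run. It was 0.47, -0.49 and -0.08 among the cells with low numbers and -0.44, -0.52 and -0.69 among those with high numbers, in the same order of groups. Between the share and the number of detected genes, rho was -0.52, -0.09 and -0.20 over all cells in this order. Within runs it was -0.24, 0.001 and -0.60 among low numbers and -0.65, -0.69 and -0.14 among high numbers. The part of library quality in the share was not tested.

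**Figure D2:**
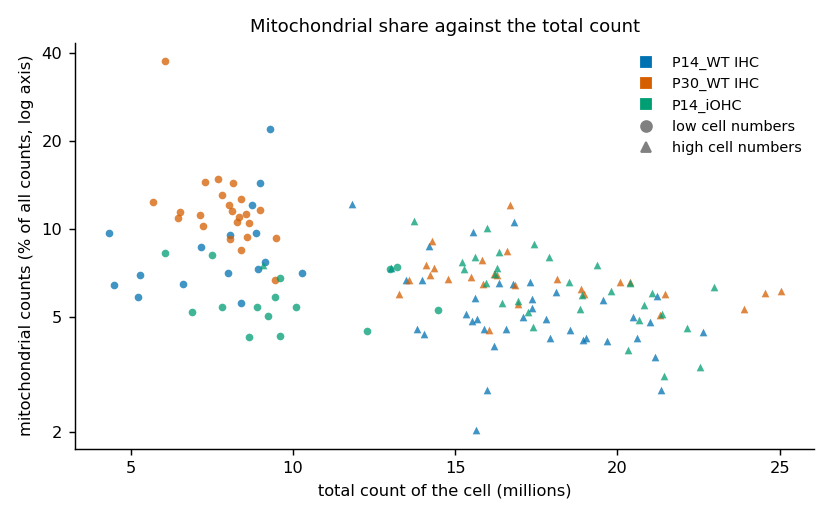
Mitochondrial share of the counts (%, log axis) against the total count (in units of 1000000) for each of the 151 cells, coloured by group, with circles for low and triangles for high cell numbers. All wild-type circles lie at totals of 10267217 or less, and 9 of the 15 P14_iOHC circles lie below every P14_WT IHC circle.

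The spread between cells was narrowest in P14_iOHCs over all cells, but not among cells with high numbers. The SD of the log2 share was 0.39 in P14_iOHCs, 0.55 in P30_WT IHCs and 0.60 in P14_WT IHCs, which gave SD ratios to the P14_WT IHCs of 0.644 and 0.907. Within runs the P14_iOHC ratio was 0.611 for low and 0.833 for high numbers. The P30 ratio was 0.867 for low and 0.545 for high numbers, where the log2 shares had an SD of 0.27 in P30_WT IHCs and 0.42 in P14_iOHCs. For single genes above 1000 CPM, the SD in units of the mean had a median of 0.554 over 9 mitochondrial genes and of 0.291 over 77 nuclear genes in P14_WT IHCs, of 0.570 over 9 and 0.316 over 65 in P30_WT IHCs, and of 0.331 over 9 and 0.427 over 76 in P14_iOHCs. The mitochondrial genes thus varied more than the nuclear genes of this level in both wild-type groups and less in the P14_iOHCs. Among P30_WT IHCs with high numbers, the mitochondrial median was 0.180 and the nuclear one 0.274.

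*mt-Rnr2* (large-subunit rRNA, chrM:1094-2675) and *mt-Cytb* (cytochrome b of complex III, chrM:14145-15288) gave the most counts. *mt-Rnr2* took 21.98% ± 6.999 of the mitochondrial counts in P14_WT IHCs (SD, n = 55), 20.7% ± 5.81 in P30_WT IHCs (SD, n = 50) and 19.01% ± 5.55 in P14_iOHCs (SD, n = 46). *mt-Cytb* took 20.9% ± 2.87, 21.3% ± 2.89 and 21.7% ± 2.51 in the same order. *mt-Rnr2* had the 4th highest mean CPM of all genes in each group, and 4 mitochondrial genes in P14_WT IHCs, 5 in P30_WT IHCs and 4 in P14_iOHCs were among the 10 highest. Per kilobase of gene, which is the scale on which genes are compared, *mt-Cytb* stood at 11540 and *mt-Nd1* at 11179 CPM per kb in P14_WT IHCs, followed by *mt-Rnr2* at 9416, *mt-Co1* at 5930.5, *mt-Nd2* at 4002, *mt-Nd4* at 3800.0, *mt-Rnr1* at 2564, *mt-Nd5* at 2274 and *mt-Nd6* at 2078. The genes with a chromosome 1 copy over more than 90% of their length were far lower, with *mt-Nd3* at 144, *mt-Co3* at 124, *mt-Atp6* at 121, *mt-Co2* at 116 and *mt-Nd4l* at 5.76 CPM per kb. *mt-Atp8* stood at 16.4 CPM per kb.

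**Figure D3:**
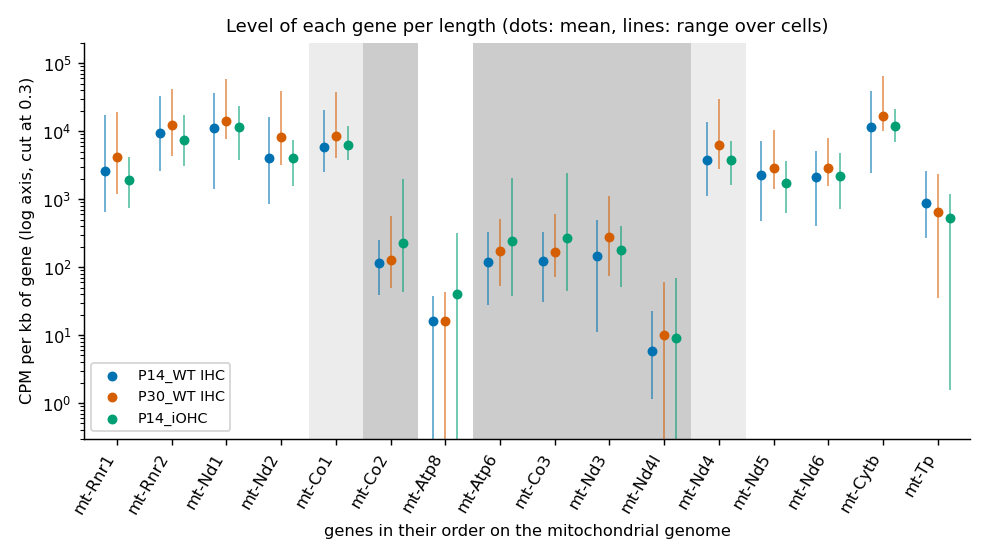
Mean CPM per kb (dots, log axis) and the range over the cells (lines, cut at 0.3) for the genes with at least 1 CPM in any group, in their order on the mitochondrial genome. Dark grey marks genes with a copy on chromosome 1 over more than 90% of their length and light grey those covered in part, and the dark grey genes and *mt-Atp8* lie at 5.76 to 279.9 CPM per kb while all other mRNAs lie above 1000.

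In the rRNAs, *mt-Rnr1* (small-subunit rRNA, chrM:70-1024) was higher in mean at P30, mostly among cells with low numbers, and lower in mean in P14_iOHCs. *mt-Rnr1* ranged from 612 to 16483 CPM in P14_WT IHCs (median 1848, mean 2448 ± 2363, SD, n = 55), from 1133 to 18207 in P30_WT IHCs (median 3017, mean 3923 ± 2704, SD, n = 50) and from 709 to 4028 in P14_iOHCs (median 1709, mean 1807 ± 784, SD, n = 46). The P30 ratio of means was 1.60, but 2.02 among low and 1.08 among high numbers, and the P14_iOHC ratio was 0.738, with 0.677 among low numbers and 0.766 among high numbers, where the P14_iOHC was still higher in 49.96% of pairs. *mt-Rnr2* had ratios of 1.30 at P30 (1.38 among low and 1.11 among high numbers) and 0.798 in P14_iOHCs (0.699 and 0.847). Counts on *mt-Rnr2* per count on *mt-Rnr1* were 6.48 ± 1.48 in P14_WT IHCs, 5.30 ± 1.44 in P30_WT IHCs and 6.79 ± 1.38 in P14_iOHCs (SD over cells). At P30 this ratio was 4.34 ± 0.849 among low numbers, where 13 of 23 cells lay below every P14_WT IHC of that run, and 6.12 ± 1.34 among high numbers, where 0 of 27 did. The 2 rRNAs went together from cell to cell, with a Spearman's rho of 0.90 in P14_WT IHCs, 0.82 in P30_WT IHCs and 0.88 in P14_iOHCs.

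The rRNA share of the mitochondrial counts had close means in the wild-type groups and a lower one in P14_iOHCs over all cells, and both differences were of opposite sign in the 2 runs of cell numbers. Its share ranged from 16.05% to 64.1% in P14_WT IHCs (median 23.7%, mean 25.6% ± 8.59, SD, n = 55), from 15.4% to 47.8% in P30_WT IHCs (median 23.6%, mean 24.7% ± 6.31, SD, n = 50) and from 9.42% to 42.6% in P14_iOHCs (median 20.7%, mean 21.9% ± 6.28, SD, n = 46). Over all cells the P30 mean was 0.868 percentage points below the P14 mean (a difference of -0.868), with the P30 cell higher in 49.7% of pairs. This pooled value joined opposite differences, 2.90 points among low numbers and -2.04 points among high numbers. P14_iOHCs were 3.69 points lower than P14_WT IHCs in mean, which is under 1 SD between cells, and were higher in 36.2% of pairs. Among low numbers the P14_iOHC mean was 1.98 points higher, and among high numbers it was 6.09 points lower (28.3% of pairs), so the direction differed with the run. The share of all counts on rRNA was 1.73% ± 1.24 in P14_WT IHCs, 2.32% ± 1.34 in P30_WT IHCs and 1.37% ± 0.539 in P14_iOHCs, and that on mRNA was 4.80% ± 2.33, 7.02% ± 3.83 and 4.87% ± 1.37 (SD over cells). The mRNA ratio of P14_iOHCs to P14_WT IHCs was 1.01 over all cells, 0.630 among low and 1.31 among high numbers. The mRNA share was above the median of the P14_WT IHCs in 49 of the 50 P30_WT IHCs.

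Of the 13 mRNAs and 2 rRNAs, 5 had a mean CPM over 1.5 times higher and 0 over 1.5 times lower in P30_WT IHCs than in P14_WT IHCs. These were *mt-Nd2*, *mt-Nd3*, *mt-Nd4l*, *mt-Nd4* and *mt-Rnr1*, that is 4 subunits of complex I and 1 rRNA, and all 15 genes had at least 5 counts in at least 10 cells. Of all 12946 genes with such counts, 17.9% were over 1.5 times higher and 20.6% over 1.5 times lower (38.5% in either direction). At a ratio of 2, 1 gene was higher and 0 lower (8.83% and 10.4% of all genes), and at 4 none of the 15 was past it in either direction (5.31%). Only *mt-Nd3* was over 1.5 times higher within each run, as 8.35% of all genes were, and 0 were over 1.5 times lower within each run (10.4%). P14_iOHCs, set against the same P14_WT IHCs, also had 5 genes over 1.5 times higher (*mt-Co2*, *mt-Atp8*, *mt-Atp6*, *mt-Co3* and *mt-Nd4l*) and 0 lower, beside 28.4% and 22.3% of 13673 genes (50.6% in either direction). At a ratio of 2, *mt-Atp8* and *mt-Co3* were higher and 0 were lower (18.4% and 13.2% of all genes), and at 4 none of the 15 was past it (13.9%). The 5 genes over 1.5 times higher were all genes with a copy on chromosome 1 or *mt-Atp8*. Within each run, 0 of the 15 genes passed the fold of 1.5 (17.6% of all genes did so upward and 13.2% downward).

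Complex I, the entry point for electrons from NADH, gave 51.9% ± 3.49 of the mitochondrial mRNA counts in P14_WT IHCs (SD, n = 55), 52.7% ± 3.11 in P30_WT IHCs (SD, n = 50) and 50.7% ± 4.07 in P14_iOHCs (SD, n = 46). The differences from P14_WT IHCs, 0.734 points at P30 and -1.22 points in P14_iOHCs, were under 1 SD between cells. At P30 the difference was -0.924 points among low and 0.421 points among high numbers, so that its sign differed with the run, and in P14_iOHCs it was -3.69 and -0.313 points. Without the P14_iOHCs above every P14_WT IHC in supporting-cell markers it was -0.514 points. Within the complex, single genes lay higher or lower at P30. *mt-Nd2* (chrM:3914-4951) ranged from 5.32% to 11.05% of the mRNA counts in P14_WT IHCs (median 8.40%, mean 8.32% ± 1.31) and from 7.37% to 18.95% in P30_WT IHCs (median 11.4%, mean 11.4% ± 2.93), and 26 of 50 P30 cells lay above every P14 cell. Among low numbers the 2 ages did not overlap, at 11.4% to 18.95% against 7.17% to 11.05%, and among high numbers the means were 9.06% ± 1.22 and 7.80% ± 1.04 with the P30 cell higher in 77.8% of pairs. In CPM *mt-Nd2* had a mean of 8539 ± 6201 at P30 and 4154 ± 2574 at P14, a ratio of 2.06. This was the single ratio over 2 at P30 with all cells pooled, and it was 1.93 among low and 1.48 among high numbers, under 2 in each run.

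*mt-Nd1* (chrM:2751-3707) took a smaller share of the mRNA at P30. The median share was 21.8% in P14_WT IHCs (11.7% to 27.9%) and 19.3% in P30_WT IHCs (15.7% to 22.98%). The mean was 2.73 points lower at P30, 4.80 points among low numbers, where 18 of 23 P30 cells lay below every P14 cell of that run, and 1.58 points among high numbers. The share of *mt-Nd4* (chrM:10167-11544) was 10.7% ± 1.29 in P14_WT IHCs and 11.9% ± 1.62 in P30_WT IHCs, higher by 1.88 points among low and by 0.371 points among high numbers. *mt-Nd3* had a mean of 50.2 ± 33.7 CPM at P14 and 97.4 ± 69.7 CPM at P30, a ratio of 1.94 that was 1.68 among low and 1.52 among high numbers, and reads of its nuclear copy cannot be told apart beyond the single differing base. Gm28438 itself was 2.45 times higher at P30.

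*mt-Nd5* (chrM:11742-13565) took a smaller share of the mRNA in P14_iOHCs than in P14_WT IHCs in both runs of cell numbers. Its share ranged from 4.88% to 12.7% in P14_WT IHCs (median 8.29%, mean 8.47% ± 1.42, SD, n = 55) and from 3.10% to 9.71% in P14_iOHCs (median 6.604%, mean 6.42% ± 1.39, SD, n = 46). The ranges overlapped, with the P14_iOHC higher in 13.2% of pairs. The difference was -2.81 points among low numbers (8.75% of pairs, 11 of 15 cells below every P14_WT IHC of that run) and -1.78 points among high numbers (13.4% of pairs, 5 of 31). In P30_WT IHCs the share was 7.6005% ± 1.12 (SD, n = 50). In CPM *mt-Nd5* had a mean of 3165 ± 1205 in P14_iOHCs and 4149 ± 2337 in P14_WT IHCs, a ratio of 0.763 that was 0.464 among low and 1.03 among high numbers. *mt-Nd1* and *mt-Nd2* shares in P14_iOHCs, 22.7% ± 2.65 and 8.63% ± 1.38, differed from those of P14_WT IHCs by 0.700 and 0.312 points. The *mt-Nd1* difference was 0.500 points among low and 0.695 points among high numbers, and that of *mt-Nd2* was -0.607 and 0.663 points, of opposite sign.

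*mt-Nd6* (chrM:13552-14070, minus strand) is the single mRNA read from the opposite strand and shares 14 bases with *mt-Nd5*. Whether reads were counted by strand is not given in the sources used here, so its reads and those of antisense RNA cannot be told apart. It took 2.36% ± 0.516, 2.36% ± 0.935 and 2.29% ± 0.619 of the mRNA counts in P14_WT IHCs, P30_WT IHCs and P14_iOHCs. At P30 it was lower by 0.251 points among low numbers and higher by 0.477 points among high numbers. Across P30_WT IHCs the CPM of *mt-Nd6* and of an mRNA of the other strand had a median rho of 0.10 over the pairs of genes, and of 0.86 for pairs of mRNAs of the other strand. Within runs the 2 medians were close, at 0.71 and 0.77 among low numbers and 0.49 and 0.47 among high numbers.

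**Figure D4:**
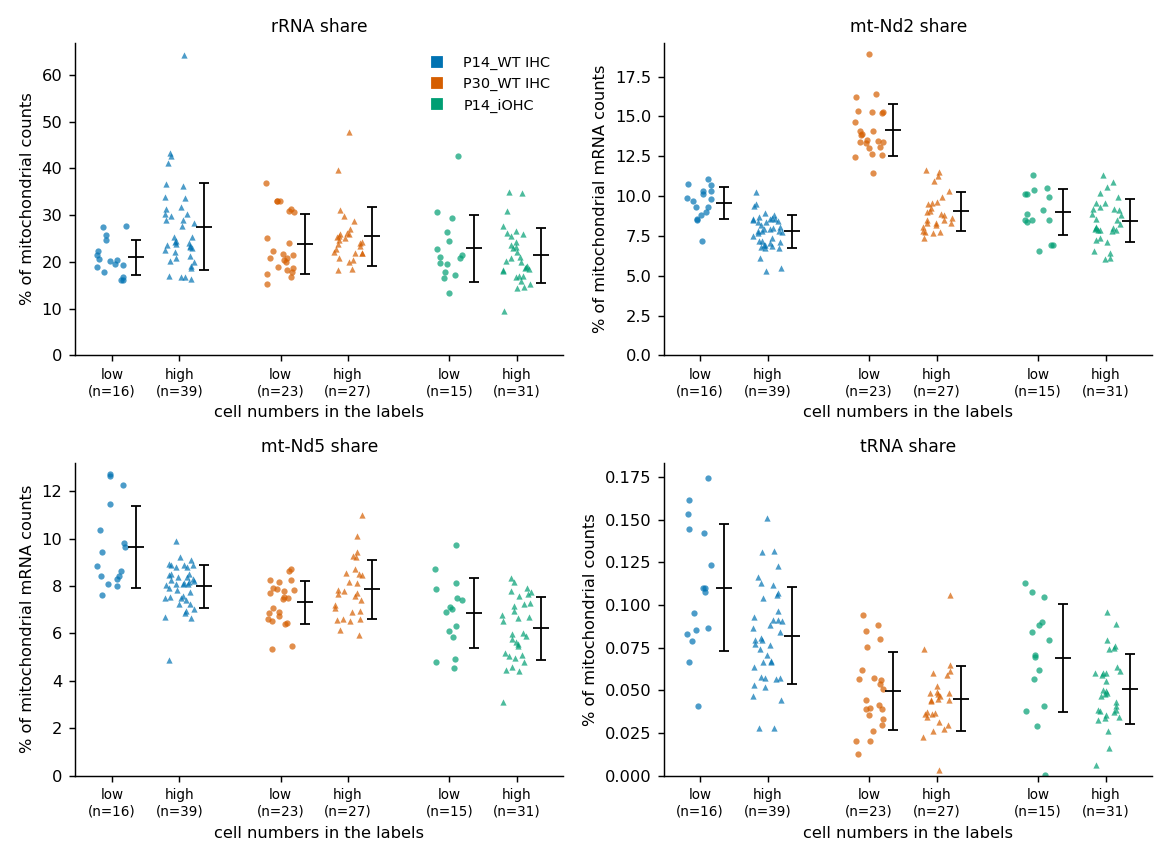
Points are cells with low (circles) or high (triangles) numbers in the labels, bars are the mean ± SD, and the panels show rRNA and tRNA in percent of mitochondrial counts and *mt-Nd2* and *mt-Nd5* in percent of mitochondrial mRNA counts. *mt-Nd2* lies higher at P30 in both runs, without overlap among low numbers, *mt-Nd5* lies lower in P14_iOHCs than in P14_WT IHCs in both runs, and the tRNA share lies lower in both other groups than in P14_WT IHCs.

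Complex III, which passes electrons on to cytochrome c, has 1 mitochondrial gene. *mt-Cytb* ranged from 2788 to 43920.5 CPM in P14_WT IHCs (median 12036, mean 13202 ± 5661), from 11304 to 73480.3 CPM in P30_WT IHCs (median 17583, mean 19353 ± 9122) and from 7854 to 23949 in P14_iOHCs (median 12638, mean 13454 ± 3767). Its P30 ratio was 1.47, with 1.37 among low and 1.33 among high numbers, and the P30 cell was higher in 82.6% of pairs. The P14_iOHC ratio of *mt-Cytb* was 1.02 over all cells, but 0.684 among low and 1.24 among high numbers, of opposite direction. The share of mRNA was 28.2% ± 2.82, 28.3% ± 2.90 and 27.7% ± 2.44 in P14_WT IHCs, P30_WT IHCs and P14_iOHCs. P14_iOHCs lay 2.37 points above P14_WT IHCs among low numbers and 1.51 points below them among high numbers.

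Complex IV, the enzyme that hands electrons to oxygen, gave 19.7% ± 2.70 of the mRNA counts in P14_WT IHCs, 18.8% ± 1.59 in P30_WT IHCs and 21.2% ± 3.15 in P14_iOHCs, and nearly all of this was *mt-Co1*. The difference was -0.902 points at P30 and 1.48 points in P14_iOHCs, both under 1 SD between cells. Within runs it was -0.227 points among low and -1.27 points among high numbers at P30, and 1.36 and 1.58 points in P14_iOHCs. The P14_iOHC difference was 0.581 points without the cells above every P14_WT IHC in supporting-cell markers. *mt-Co1* had a mean of 9163 ± 4416 CPM in P14_WT IHCs, 13112 ± 7705 in P30_WT IHCs and 9809.6 ± 2576 in P14_iOHCs. The ratio to P14_WT IHCs was 1.33 among low and 1.23 among high numbers at P30. In P14_iOHCs it was 0.667 among low numbers (13.3% of pairs) and 1.38 among high numbers (81.8% of pairs), of opposite direction. *mt-Co2* and *mt-Co3*, the other core subunits, had means of only 79.5 ± 31.1 and 97.5 ± 37.2 CPM in P14_WT IHCs. Complex V, whose *mt-Atp6* and *mt-Atp8* belong to the proton channel of ATP synthase, gave 0.189% ± 0.0420 of the mRNA counts in P14_WT IHCs, 0.181% ± 0.0595 in P30_WT IHCs and 0.336% ± 0.382 in P14_iOHCs. In CPM the P14_iOHC ratio of *mt-Atp6* was 0.454 among low and 2.98 among high numbers.

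The low genes *mt-Co2*, *mt-Atp8*, *mt-Atp6*, *mt-Co3*, *mt-Nd3* and *mt-Nd4l* split the P14_iOHCs into 2 sets that did not overlap. Their summed counts per 1000 counts on *mt-Nd1*, *mt-Nd2*, *mt-Nd5*, *mt-Nd6* and *mt-Cytb* ranged from 5.66 to 13.7 in P14_WT IHCs (median 9.77), from 5.35 to 17.2 in P30_WT IHCs (median 9.08), from 4.52 to 9.48 in P14_iOHCs 1 to 15 (median 6.61) and from 14.3 to 143 in P14_iOHCs 16 to 46 (median 18.4). All 31 P14_iOHCs with high numbers lay above every P14_WT IHC, and 0 of the 15 with low numbers did. These runs were chosen after the counts of *mt-Atp8*, which is among the summed genes, were seen. Wild-type cells with low and high numbers overlapped, at 5.66 to 11.4 and 7.46 to 13.7 at P14. P14_iOHC 18, at 143, and P14_iOHC 43, at 42.001, stood highest. P14_iOHC 18 is also the only high-numbered P14_iOHC with a total below the gap.

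Each of these 6 genes was lower in mean CPM in the P14_iOHCs with low numbers, and higher in those with high numbers, than in the P14_WT IHCs of the same run. The other mRNAs had the same directions, with smaller ratios among high numbers. *mt-Co3* ranged from 34.7 to 101 CPM in P14_iOHCs with low numbers (mean 59.3 ± 22.3, SD, n = 15) and from 98.0 to 1894 CPM in those with high numbers (mean 280.02 ± 315, median 189.6, SD, n = 31), and the ratios to the P14_WT IHCs of the same run were 0.469 and 3.27. For *mt-Atp6* these ratios were 0.454 and 2.98, and for *mt-Co2* 0.566 and 2.82. They were 0.591 and 1.98 for *mt-Nd3*, 0.472 and 1.88 for *mt-Nd4l* and 0.866 and 2.62 for *mt-Atp8*. The pseudogenes on chromosome 1 summed to 525 ± 223 CPM in P14_iOHCs with low numbers and to 1484 ± 806 CPM in those with high numbers, and to 1111 ± 1009 and 788 ± 432 CPM in P14_WT IHCs. Against P14_WT IHCs, 3 of the 7 pseudogenes were over 1.5 times higher in P14_iOHCs and 5 in P30_WT IHCs, beside 28.4% and 17.9% of all genes, and 0 were lower by this fold. The 5 were higher at P30 in both runs, and 0 of the 3 were higher in P14_iOHCs in both runs. There were 0.336 ± 0.168 counts on *mt-Co3* per count on Gm28437 in P14_WT IHCs, 0.255 ± 0.117 in P30_WT IHCs and 0.408 ± 0.219 in P14_iOHCs (SD over cells). How reads with several equal alignments were counted is not given in the sources used here, so how far the levels of these genes reflect the organelle was not tested.

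*mt-Atp8* was at or near 0 in every cell with a low number. The runs of numbers were chosen after these counts were seen, so this step between runs is no independent result. *mt-Atp8* had 0 to 5 counts in P14_WT IHCs 1 to 16, 0 to 7 in P30_WT IHCs 1 to 23 and 0 to 5 in P14_iOHCs 1 to 15. It had 18 to 125, 55 to 171 and 79 to 591 counts in the cells with high numbers of the same groups. The mean among high numbers was 4.61 ± 1.38 CPM in P14_WT IHCs (SD, n = 39), 5.81 ± 1.17 in P30_WT IHCs (SD, n = 27) and 12.1 ± 11.2 in P14_iOHCs (SD, n = 31), where the P14_iOHC was higher in 92.4% of pairs. In P14_WT IHCs with low numbers the mean was 0.223 ± 0.165 CPM (SD, n = 16), so the step also stood relative to the totals.

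**Figure D5:**
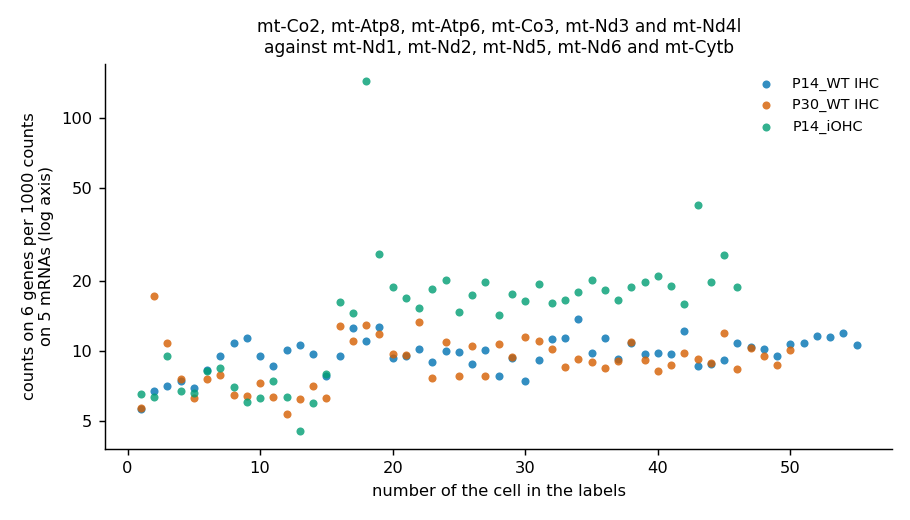
Summed counts on *mt-Co2*, *mt-Atp8*, *mt-Atp6*, *mt-Co3*, *mt-Nd3* and *mt-Nd4l* per 1000 counts on *mt-Nd1*, *mt-Nd2*, *mt-Nd5*, *mt-Nd6* and *mt-Cytb* (log axis) against the number of the cell in the labels, 1 point per cell. P14_iOHCs step from 4.52 to 9.48 (cells 1 to 15) to 14.3 to 143 (cells 16 to 46), while the wild-type cells lie between 5.35 and 17.2.

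Among the 22 tRNA genes, *mt-Tp* (proline tRNA, chrM:15356-15422, minus strand) alone had more than a handful of counts. Its sequence is shown since it carries all but a few of the tRNA counts.
mt-Tp: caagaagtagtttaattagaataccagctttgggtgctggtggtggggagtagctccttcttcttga
It is the last annotated gene before the non-coding control region, and no strand was given for the counts. The 21 other tRNA genes had 0 to 4 counts each over all 151 cells. *mt-Tp* ranged from 17.7 to 174 CPM in P14_WT IHCs (median 46.996, mean 59.2 ± 38.2), from 2.37 to 155 CPM in P30_WT IHCs (median 33.5, mean 43.97 ± 28.7) and from 0.104 to 79.0 CPM in P14_iOHCs (median 32.5, mean 35.1 ± 18.1). As a share of the mitochondrial counts, tRNA stood at 0.0903% ± 0.0335 in P14_WT IHCs (SD, n = 55), 0.0472% ± 0.0209 in P30_WT IHCs (SD, n = 50) and 0.0567% ± 0.0258 in P14_iOHCs (SD, n = 46). The ratio to P14_WT IHCs was 0.522 at P30 (0.450 and 0.549 within runs) and 0.628 in P14_iOHCs (0.626 and 0.619 within runs), so that the tRNA share was lower in both groups and both runs.

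Nuclear genes of the same machinery were compared by the same fold, and their counts stand beside 17.9% of all genes that were higher and 20.6% that were lower at P30. For the subunits of the respiratory complexes at P30, the number over 1.5 times lower than at P14 was 4 of 37 tested in complex I, 2 of 4 in complex II, 3 of 9 in complex III, 3 of 12 in complex IV and 4 of 18 in complex V, and 1 subunit of complex I was higher. Of these 16 lower genes, all but 1 of complex IV were lower in both runs. The count in complex I lay under the share of all genes and that in complex V was close to it. The medians of the log2 ratios were -0.23, -0.52, -0.50, -0.39 and -0.34, against -0.03 over all genes tested, so these nuclear medians had the opposite sign to that of the mitochondrial mRNA share. *Atp5b*, the catalytic subunit of ATP synthase, had a mean of 988 ± 406 CPM at P30 and 1891 ± 568 at P14, and the P30 cell was higher in 10.0% of pairs. *Cox4i1* of complex IV had 629.8 ± 231 and 992 ± 229 CPM, *Cyc1*, cytochrome c1 of complex III, had 181 ± 118 and 334 ± 143 CPM, and *Sdhd* of complex II had 80.3 ± 85.9 and 218 ± 112 CPM. Each of these 4 was lower at P30 in both runs. *Ndufb2*, the complex I subunit that was higher, had 25.8 ± 30.3 and 15.7 ± 17.6 CPM.

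In P14_iOHCs few nuclear subunits were past the fold, where 28.4% of all genes were higher and 22.3% lower. Complex I had 5 of 37 over 1.5 times higher and 0 lower, complex II 0 of 4 in either direction, complex III 1 of 9 lower, complex IV 2 of 13 higher and complex V 0 of 18 in either direction, with medians of -0.02, -0.26, -0.05, 0.15 and -0.05 against 0.08 over all genes tested. *Ndufb4* had 582 ± 212 CPM in P14_iOHCs and 294 ± 81.0 in P14_WT IHCs (90.3% of pairs), and *Ndufa8* and *Ndufa5*, also of complex I, had log2 ratios of 0.94 and 0.89. *Cyc1* was the lower gene, with 222 ± 154 CPM. The proteins of the mitochondrial ribosome numbered 3 higher and 3 lower of 48 in the large subunit and 3 higher and 7 lower of 29 in the small subunit, and at P30 they were 1 and 6 of 48 and 1 and 3 of 29. *Mrps6*, of the small subunit, had 34.1 ± 40.9 CPM in P14_iOHCs and 414 ± 168 in P14_WT IHCs and was higher in the P14_iOHC in 0.435% of pairs, with log2 ratios of -2.83 and -3.90 in the 2 runs. The annotation has *Mrps6* overlap *Slc5a3* on the same strand, so reads of the 2 genes may be shared.

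Genes that copy and transcribe mitochondrial DNA showed no common direction, and the counts that follow stand beside the same shares of all genes, 17.9% higher and 20.6% lower at P30 and 28.4% and 22.3% in P14_iOHCs. Of 16 tested at P30, 4 were over 1.5 times higher and 3 lower (median 0.31), and of 17 tested in P14_iOHCs 4 were higher and 2 lower (median 0.19). *Twnk*, the helicase of mitochondrial DNA, had 19.4 ± 32.5 CPM in P14_WT IHCs, 6.19 ± 16.002 in P30_WT IHCs and 7.01 ± 19.3 in P14_iOHCs, and *Tfam*, which packs the DNA and starts its transcription, had a log2 ratio of 0.84 in P14_iOHCs. For RNA processing and decay the counts were 6 higher and 8 lower of 27 at P30 and 5 and 6 of 27 in P14_iOHCs. Of 7 tested regulators of mitochondrial biogenesis, 1 was higher and 3 lower at P30, with *Esrra* at 1.36 ± 5.18 against 12.8 ± 22.3 CPM, and 2 were higher in P14_iOHCs, with *Tfeb* at 16.4 ± 28.4 against 3.47 ± 11.8 CPM. These genes were at 0 counts in many cells, and the SDs were larger than the means. Of 13 genes that respond to dissociation, 9 were higher at P30, of which 4 were higher in both runs, and 10 were higher and 1 lower in P14_iOHCs, all 11 in the same direction in both runs. Their summed level had medians of 1804 CPM in P14_WT IHCs, 2980.1 CPM in P30_WT IHCs and 1620.5 CPM in P14_iOHCs. The means were 1926 ± 1024, 3538 ± 2491 and 3218 ± 4086 CPM in the same order (SD over cells). The highest P14_iOHC reached 18013 CPM and the highest P14_WT IHC 4937 CPM. Their part in the mitochondrial share was not tested, and rho between this level and the mitochondrial share was -0.07 in P14_WT IHCs, 0.51 in P30_WT IHCs and -0.36 in P14_iOHCs. Within runs it was -0.42 and 0.10 in P14_WT IHCs, 0.15 and -0.38 in P30_WT IHCs and -0.37 and -0.35 in P14_iOHCs, for low and high numbers.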

How the data were processed

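The authors amplified the cDNA of each picked cell with a Smart-Seq HT kit, trimmed and aligned the paired-end reads to mm10 (per the submitters' processing notes with Trimmomatic 0.39 and HISAT2 2.1.0), and used HTSeq 0.10.0 to get gene counts. The authors deposited raw counts, 1 column a cell. Which annotation release and strand setting were used, and what was done with multiply aligned reads, is not given in the sources used here. Here counts were scaled to a total of 1000000 in each cell (CPM, all 55291 genes in the total), with no pseudocount. Groups were set by the labels. The background held the genes that reached 5 counts in 10 or more cells of a comparison. Ratios are ratios of means over cells, with 1.5 as the threshold. Names were matched to GENCODE M21 for 53292 genes, and nuclear copies were found as identical words of 50 bases between annotated transcripts. The ratio code was tested on simulated data.

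Members, lists and comparisons were chosen with earlier results of these data known. All 13 mRNAs and both rRNAs are named, tRNAs from a mean of 10 CPM, and up to 3 genes per nuclear list and comparison by the size of the log2 ratio. Alternatives were other denominators, edgeR 4.0.16 TMM and DESeq2 1.42.0 size factors, pooled counts, medians, sets of cells, thinning (seed 20220) and omission of genes with a nuclear copy, run in Python 3.11.15 and R 4.3.3. Runs of cell numbers and the omission of 3 outlying cells were chosen after seeing the data.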

Additional observations from a re-analysis of the deposited data

How the results depend on the processing

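No paired analysis was possible because the numbers in the labels name cells and pair none, and no fit was made. Of 167 recomputed values, 133 kept their direction and moved by less than 1 SD between cells or by less than 1.5 times. This count says little about stability, since the SD was larger than each main log2 ratio and difference. With medians the P30 rRNA difference shrank from -0.868 to -0.089 points and that of complex IV from -0.902 to -0.0578, and both were counted as kept. In wild-type cells the sets of totals and the runs of numbers hold the same cells, and both enter the count. For P30_WT IHCs against P14_WT IHCs, the log2 ratios of the mitochondrial share (0.51) and the mRNA share (0.55) kept their sign in all alternatives run. The difference in the rRNA share reversed to 2.90 points in the lower set of totals, which are the cells with low numbers, and that of the complex I share to -0.924 there and to -0.386 without *mt-Atp8* and the genes with a copy on chromosome 1 (called the genes with a copy below). The count of 5 genes past 1.5-fold became 3 in the upper set of totals (the cells with high numbers) and without cells far from the median of detected genes, 2 without the genes with a copy, and 1 and 0 at folds of 2 and 4. The SD ratio of the share, 0.907, became 0.545 in the upper set and 1.13 with median absolute deviations. The background of 38.5% of genes past 1.5-fold in either direction became 68.9% with all genes of at least 1 count.

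For P14_iOHCs against P14_WT IHCs, the log2 ratio of the share, -0.07, became -0.62 in the lower and 0.21 in the upper set of totals, -0.63 among low and 0.23 among high numbers, 0.043 with pooled counts, 0.049 with medians and 0.047 without cells far from the median of detected genes. That of the mRNA share, 0.02, became -0.63 in the lower set, -0.67 among low numbers, -0.0026 over counts outside the mitochondrial genes and -0.0069 without the genes with a copy. The rRNA difference, -3.69 points, became 0.986 in the lower set and 1.98 among low numbers, and the complex I difference, -1.22, became 0.0583 in the upper set. The count of 5 genes, all higher in P14_iOHCs, became 11 in the lower set and 10 among low numbers. All 10 among low numbers were lower in P14_iOHCs, with ratios from 0.454 (*mt-Atp6*) to 0.650 (*mt-Nd1*), opposite to the 5. The share of all genes past the fold was not computed in either set. The count became 0 without the genes with a copy, and 2 and 0 at folds of 2 and 4. The causes were not tested. Without the genes with a copy, complex IV has no value since all its genes are left out, and pooled counts give no spread. Without P14_iOHC 18, P14_WT IHC 4 and P30_WT IHC 23 (chosen after seeing their values, as were the runs of numbers), no direction turned, and the P14_iOHC count became 4. No direction turned either with the 30 P14_iOHCs not above the highest P14_WT IHC in supporting-cell markers. With these 30 P14_iOHCs the complex IV difference was 0.581 in place of 1.48 points and the complex I difference -0.514 in place of -1.22. Depth did not limit the 9 mitochondrial genes above 1000 CPM, while *mt-Atp8*, *mt-Nd4l* and 21 tRNA genes had counts near 0 in many cells.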
